A study of Homo sapiens with 18 samples.

Results

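TGFB1, TGFB2, SMAD6, SMAD7, SKIL, ID1, ID2, ID3 and BAMBI are 9 ligand, feedback and target genes of the TGF-β and BMP pathways, out of 19740 genes with a name on the array. They were taken by name. Every probe that the RefSeq accession or the printed symbol ties to one of them was used, which gave 10 probes, a single one for each gene except ID2, which has a pair. All 10 probes were well above background on all 18 arrays, so all 9 genes were tested. The samples were EpCAM+ cells, the fraction with tumor-initiating properties in the study, sorted from the human hepatocellular carcinoma (HCC) lines Huh1 and Huh7. Each line was cultured for 48 hours with disulfiram (DSF, 0.1 µM), an aldehyde dehydrogenase inhibitor used against alcohol dependence, or with fluorouracil (5-FU, 1 µM), a pyrimidine analogue, or as a control without either drug. There were 3 arrays for each of the 6 groups. The labels name DSF only, whereas the methods of the study list copper chloride with DSF among its treatments and do not say what the array controls received, so that DSF and copper cannot be told apart here. Both lines are established tumor cell lines, so nothing here is measured in normal hepatocytes. Fewer cells that express a gene and less RNA per cell cannot be told apart in such bulk samples.

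TGF-β ligands signal through serine/threonine kinase receptors that phosphorylate SMAD2 and SMAD3, and BMP ligands through related receptors that phosphorylate SMAD1, SMAD5 and SMAD9. Both sets of SMADs join SMAD4 and switch on target genes, among them the pathway's own brakes: SMAD6 and SMAD7 block the receptors, SKIL (SnoN) holds SMAD complexes silent, and BAMBI is a receptor-like membrane protein without a kinase. ID1, ID2 and ID3 are classical BMP targets, which bind basic helix-loop-helix factors and keep them from DNA. In the liver TGF-β restrains hepatocyte growth and drives fibrosis, and BMP signals set the level of the iron hormone hepcidin.

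SMAD proteins bind short sequences, and promoter windows of the genes are shown because these letters set the genes apart from each other. All 9 genes were found in a RefSeq promoter table (GRCh38.p14), of which the 250 bases before the transcription start were read. Windows were searched on both strands for the SMAD box GTCT, the palindrome GTCTAGAC, the CAGA box CAGACA, the GC-rich SMAD site GGCGCC and the cyclic AMP element (CRE) TGACGTCA. The SMAD box lies inside the palindrome, and AGAC, its reverse complement, inside the CAGA box. Capitals mark the longer motifs in the first 4 sequences, and the SMAD box in the ID1 and ID3 sequences, where no longer motif was found. The windows lie at chr15:66701986-66702235 (SMAD6, plus strand), chr3:170357465-170357714 (SKIL, plus strand), chr10:28677271-28677520 (BAMBI, plus strand), chr1:218345086-218345335 (TGFB2, plus strand), chr20:31605039-31605288 (ID1, plus strand) and chr1:23559502-23559751 (ID3, minus strand).
SMAD6: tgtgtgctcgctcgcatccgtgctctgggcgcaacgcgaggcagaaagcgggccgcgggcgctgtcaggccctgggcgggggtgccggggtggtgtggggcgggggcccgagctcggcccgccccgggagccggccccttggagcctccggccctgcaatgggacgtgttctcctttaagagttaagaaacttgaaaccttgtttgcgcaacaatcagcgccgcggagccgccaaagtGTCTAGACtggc
SKIL: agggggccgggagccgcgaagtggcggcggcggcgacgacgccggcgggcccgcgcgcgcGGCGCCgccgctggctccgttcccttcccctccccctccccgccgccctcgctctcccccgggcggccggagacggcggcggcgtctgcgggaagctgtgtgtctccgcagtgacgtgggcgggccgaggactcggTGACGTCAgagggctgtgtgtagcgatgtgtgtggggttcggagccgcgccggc
BAMBI: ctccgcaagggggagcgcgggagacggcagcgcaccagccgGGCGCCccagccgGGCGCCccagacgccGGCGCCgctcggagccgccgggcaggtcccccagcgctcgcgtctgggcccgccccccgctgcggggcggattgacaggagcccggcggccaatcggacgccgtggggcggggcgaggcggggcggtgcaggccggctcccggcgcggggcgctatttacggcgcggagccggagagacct
TGFB2: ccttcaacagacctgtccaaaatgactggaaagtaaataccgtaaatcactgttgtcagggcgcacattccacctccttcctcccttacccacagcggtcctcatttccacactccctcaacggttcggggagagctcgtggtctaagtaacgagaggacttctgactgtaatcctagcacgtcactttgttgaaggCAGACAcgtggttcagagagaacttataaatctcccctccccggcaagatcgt
ID1: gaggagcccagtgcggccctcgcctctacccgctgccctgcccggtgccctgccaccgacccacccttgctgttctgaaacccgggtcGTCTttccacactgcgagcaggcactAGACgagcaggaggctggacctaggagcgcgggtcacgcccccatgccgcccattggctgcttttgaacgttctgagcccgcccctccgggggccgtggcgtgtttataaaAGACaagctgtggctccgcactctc
ID3: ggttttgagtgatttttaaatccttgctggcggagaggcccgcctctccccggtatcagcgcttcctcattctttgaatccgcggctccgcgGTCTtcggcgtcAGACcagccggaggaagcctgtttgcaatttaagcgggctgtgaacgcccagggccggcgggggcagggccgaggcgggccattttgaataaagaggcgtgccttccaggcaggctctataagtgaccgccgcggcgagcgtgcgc

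The palindrome of SMAD6 ends 5 bases before the start. It is rare, being found in 0.182% of 35116 such windows. BAMBI has the GC-rich site 3 times, and this site is in 16.4% of windows. SKIL carries that site once, together with a CRE, which 1.65% of windows hold. TGFB2 has a CAGA box, which 13.6% of windows share. The SMAD box is in 77.5% of windows, 3 times in that of ID1 and at 2 places in those of ID2 and ID3. SMAD7 has 3 windows, all with SMAD boxes only, and the TGFB1 window has none of the 5 motifs. These matches are letters in a window, not measured binding.

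Levels are given as log2 of the probe signal minus the log2 of the array's 75th percentile, so that 0 is the 75th percentile of the same array. A change is a difference of group means on this scale with its standard error (SE). A gene was called where the limma fit over all 18 arrays gave an adjusted p under 0.05, adjusted by Benjamini-Hochberg over 29894 tested probes. On the arrays 59.9 to 71.1% of the probes were well above background. All 8 hepatocyte and liver cancer markers, ALB, AFP and EPCAM among them, were well above background on all 18 arrays. The 5-FU arrays were entirely on the slide of their controls. Of the DSF arrays, Huh1 replicate 3 and Huh7 replicates 2 and 3 were on another slide than their controls. Against 6 spike-in probes, the 75th percentile of the 5-FU arrays was above that of the controls. Scaled on those probes instead, the median of all tested probes after 5-FU stood at 0.79 in Huh1 and 0.94 in Huh7, against 0.14 and -0.09 after DSF. A change after 5-FU therefore is a change relative to the bulk of the genes. For changes of genes above background, a sign that turns on the spike-in scale is given.

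**Figure D1:**
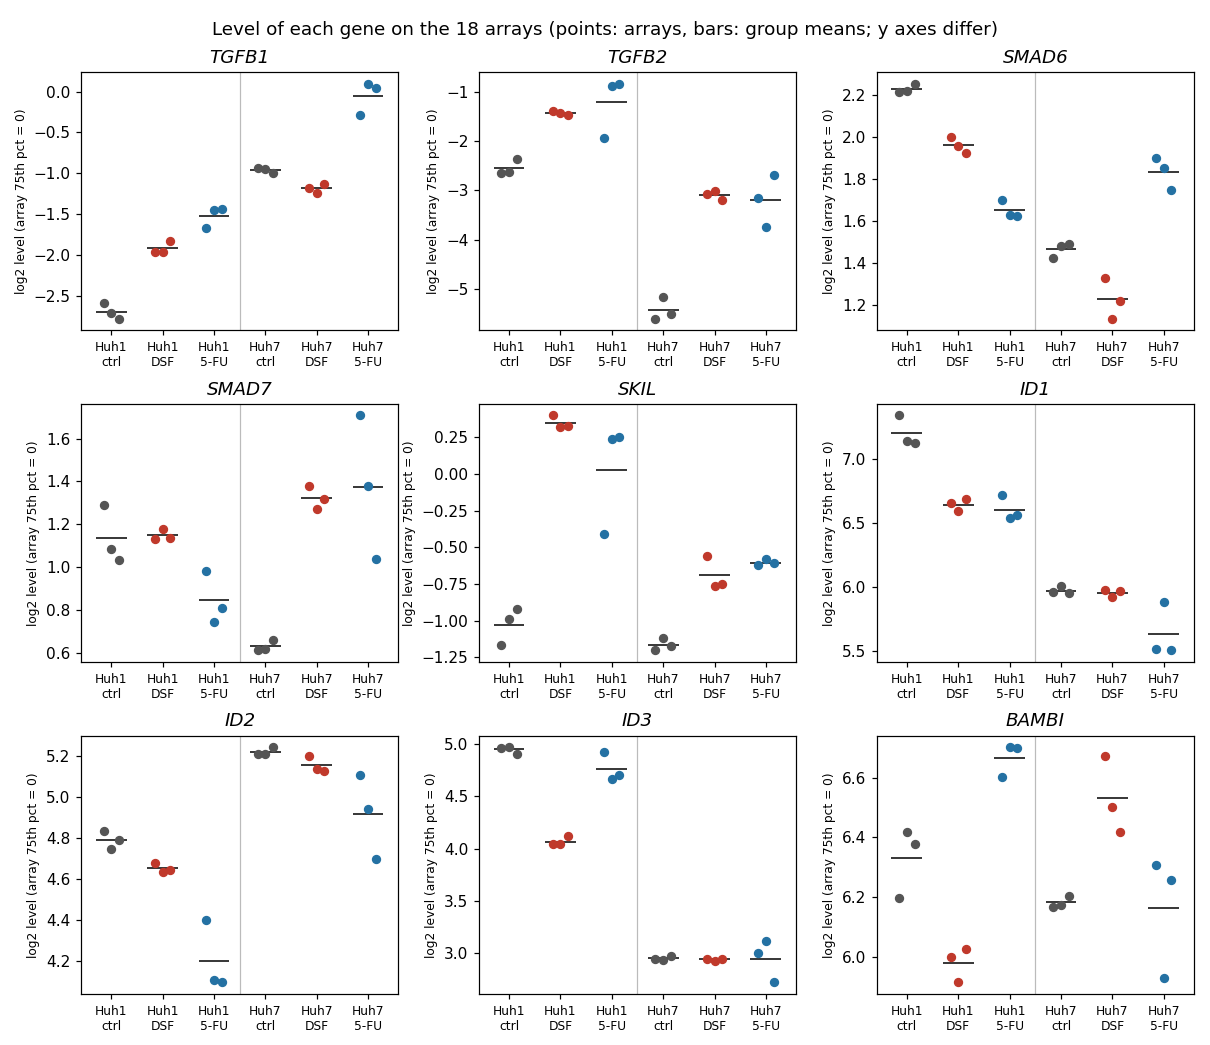
Level of the 9 genes on each array (log2, the array's 75th percentile at 0), one panel a gene, with the groups along the x axis; points are the 3 arrays of a group and bars their mean, and each y axis has its own range. TGFB2 in Huh7 lay between -5.61 and -5.18 in the controls and between -3.74 and -2.69 after either drug.

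Both ligand genes rose after both drugs, except for TGFB1 after DSF in Huh7. TGFB1, the ligand that most cells make in a latent form, had levels of -2.58, -2.72 and -2.78 on the Huh1 control arrays. After DSF these were -1.96, -1.97 and -1.83, and after 5-FU -1.67, -1.45 and -1.44. The 3 groups did not overlap, with 5-FU highest. The change was 0.77 (SE 0.097, 1.71-fold, limma adjusted p = 1.76e-05) after DSF and 1.17 (SE 0.097, 2.26-fold, adjusted p = 4.3e-07) after 5-FU. In Huh7 the controls stood at -0.94, -0.95 and -1.0. The DSF arrays, at -1.18, -1.24 and -1.14, lay just under them. This change of -0.22 (95% interval -0.43 to -0.01, adjusted p = 0.0744) was not called, but it was under quantile normalization (-0.24, adjusted p = 0.049) and on the spike-in scale (-0.40, adjusted p = 0.0354). The 5-FU arrays of Huh7, at -0.29, 0.10 and 0.04, were the highest of all groups, and the change was 0.91 (SE 0.097, 1.88-fold, adjusted p = 1.71e-06). The DSF change differed between the lines by -1.0 (SE 0.14, adjusted p = 6.69e-05). For 5-FU the line difference was -0.26 (95% interval -0.55 to 0.03, adjusted p = 0.159).

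TGFB2, a second TGF-β isoform, was at -2.65, -2.62 and -2.35 on the Huh1 controls. It was at -1.38, -1.43 and -1.46 after DSF and at -1.92, -0.87 and -0.82 after 5-FU. The first 5-FU array stood about midway between the controls and the other 5-FU arrays. The change was 1.12 (SE 0.27, 2.17-fold, adjusted p = 0.00397) after DSF and 1.34 (SE 0.27, 2.52-fold, adjusted p = 0.00102) after 5-FU. In Huh7 its level was lowest, at -5.61, -5.18 and -5.52 in the controls, where the dimmest probe well above background stood at -6.91, -6.55 and -6.90. DSF arrays stood at -3.07, -3.01 and -3.20, and 5-FU arrays at -3.16, -3.74 and -2.69. Neither drug group overlapped the controls, whereas the drug groups overlapped each other. The change was 2.34 (SE 0.27, 5.07-fold, adjusted p = 1.03e-05) after DSF and 2.24 (SE 0.27, 4.72-fold, adjusted p = 6.86e-06) after 5-FU. With normexp background correction the Huh7 changes were 0.97 and 0.83 and still called. The line difference in the DSF change was 1.23 (SE 0.39, adjusted p = 0.021) and fell to 0.11 (adjusted p = 0.772) with normexp. The offset of 50 added in normexp exceeds the processed signals of the Huh7 controls (22.9, 30.7 and 24.9). It shrinks changes from so low a level by itself, so this call depends on how low signals are treated. With the slide as a block the line difference was not called either (adjusted p = 0.107).

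The inhibitory SMAD genes did not move together. SMAD6, which acts mainly on BMP receptors, had levels of 2.21, 2.22 and 2.25 on the Huh1 controls. These were 2.00, 1.96 and 1.93 after DSF and 1.70, 1.63 and 1.63 after 5-FU, in 3 separate groups. It fell by 0.27 (SE 0.06, adjusted p = 0.00214) after DSF and by 0.58 (SE 0.06, adjusted p = 3.3e-06) after 5-FU. In Huh7 it went the other way after 5-FU. The controls stood at 1.42, 1.48 and 1.49, and the 5-FU arrays at 1.90, 1.86 and 1.75, a rise of 0.37 (SE 0.06, adjusted p = 1.06e-04). The DSF arrays of Huh7 were at 1.33, 1.14 and 1.22, a change of -0.24 (adjusted p = 0.00508). With the slide as a block this was -0.14 (adjusted p = 0.218), the value of the DSF array that shared the slide of the controls. The 5-FU change differed between the lines by 0.94 (SE 0.084, adjusted p = 1.93e-06), and the DSF change by 0.03 (95% interval -0.15 to 0.21, adjusted p = 0.797). On the spike-in scale the Huh1 change of SMAD6 after 5-FU was 0.25 (adjusted p = 0.122), below the median of all probes there, and the DSF change in Huh1 was -0.13 (adjusted p = 0.525).

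SMAD7, which acts on TGF-β and BMP receptors alike, was at 1.29, 1.09 and 1.03 on the Huh1 controls. After DSF it was at 1.13, 1.18 and 1.14, within the range of the controls, and after 5-FU at 0.98, 0.74 and 0.81, just under it. Neither change was called (0.01, 95% interval -0.26 to 0.28, adjusted p = 0.952 after DSF; -0.29, -0.56 to -0.02, adjusted p = 0.0712 after 5-FU). Without the first 5-FU array of Huh1 the latter was -0.36 and called (adjusted p = 0.0473), and on the spike-in scale it turned to 0.53 (adjusted p = 0.0184), under the median of all probes. In Huh7 SMAD7 rose. The controls were at 0.61, 0.62 and 0.66, the DSF arrays at 1.38, 1.27 and 1.32 and the 5-FU arrays at 1.71, 1.38 and 1.04. Both drug groups stood clear of the controls and overlapped each other, and the 5-FU arrays were spread widely. The rise was 0.69 (SE 0.13, 1.61-fold, adjusted p = 5.03e-04) after DSF and 0.74 (SE 0.13, 1.68-fold, adjusted p = 1.55e-04) after 5-FU. The line difference was 0.68 (SE 0.18, adjusted p = 0.00796) in the DSF change and 1.04 (SE 0.18, adjusted p = 4.54e-04) in the 5-FU change.

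SKIL, the SMAD corepressor, rose in all 4 comparisons of a drug with control. The Huh1 controls were at -1.17, -0.99 and -0.92. The DSF arrays, at 0.40, 0.32 and 0.32, were the highest of all groups. The 5-FU arrays were at -0.41, 0.24 and 0.25, with the first again apart from the other two. The change was 1.37 (SE 0.14, 2.59-fold, adjusted p = 2.14e-06) after DSF and 1.05 (SE 0.14, 2.07-fold, adjusted p = 2.33e-05) after 5-FU. In Huh7 the controls were at -1.20, -1.12 and -1.18. DSF arrays were at -0.56, -0.76 and -0.75, and 5-FU arrays at -0.62, -0.58 and -0.61. The rises there, 0.48 (SE 0.14, adjusted p = 0.0107) and 0.56 (SE 0.14, adjusted p = 0.00265), were smaller, and for DSF the difference between the lines of -0.90 (SE 0.19, adjusted p = 0.00207) was called. For 5-FU it was -0.49 (95% interval -0.90 to -0.08, adjusted p = 0.0606), and -0.71 (adjusted p = 1.58e-04) without the first 5-FU array of Huh1. On the spike-in scale the DSF rise in Huh7 was 0.30 and not called (adjusted p = 0.232). SKIL was the gene whose window held a CRE and, apart from it, a GC-rich SMAD site, as shown above. The part of these sites in its rises was not tested.

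BAMBI, the pseudoreceptor, moved in opposite directions in the lines after DSF. In Huh1 the controls were at 6.20, 6.42 and 6.38 and the DSF arrays at 6.0, 5.91 and 6.03, all below, a change of -0.35 (SE 0.096, adjusted p = 0.00848). In Huh7 the controls were at 6.17, 6.17 and 6.20 and the DSF arrays at 6.67, 6.50 and 6.42, all above, a change of 0.35 (SE 0.096, adjusted p = 0.00881). The difference between the lines was 0.70 (SE 0.14, adjusted p = 0.00107). Under quantile normalization the Huh1 change was -0.28 (adjusted p = 0.0756) and the Huh7 change 0.22 (adjusted p = 0.15), and on the spike-in scale -0.22 (adjusted p = 0.394) and 0.17 (adjusted p = 0.49), none of them called. After 5-FU BAMBI stood at 6.60, 6.70 and 6.70 in Huh1, a rise of 0.34 (SE 0.096, adjusted p = 0.0102). In Huh7 it stood at 6.31, 5.93 and 6.26, around the controls (-0.02, 95% interval -0.23 to 0.19, adjusted p = 0.886), but under quantile normalization this was 0.36 (adjusted p = 0.0207) and on the spike-in scale 0.97 (adjusted p = 1.28e-04). Its promoter window had the most GC-rich SMAD sites of the 9 genes, and their part in its changes was not tested.

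**Figure D2:**
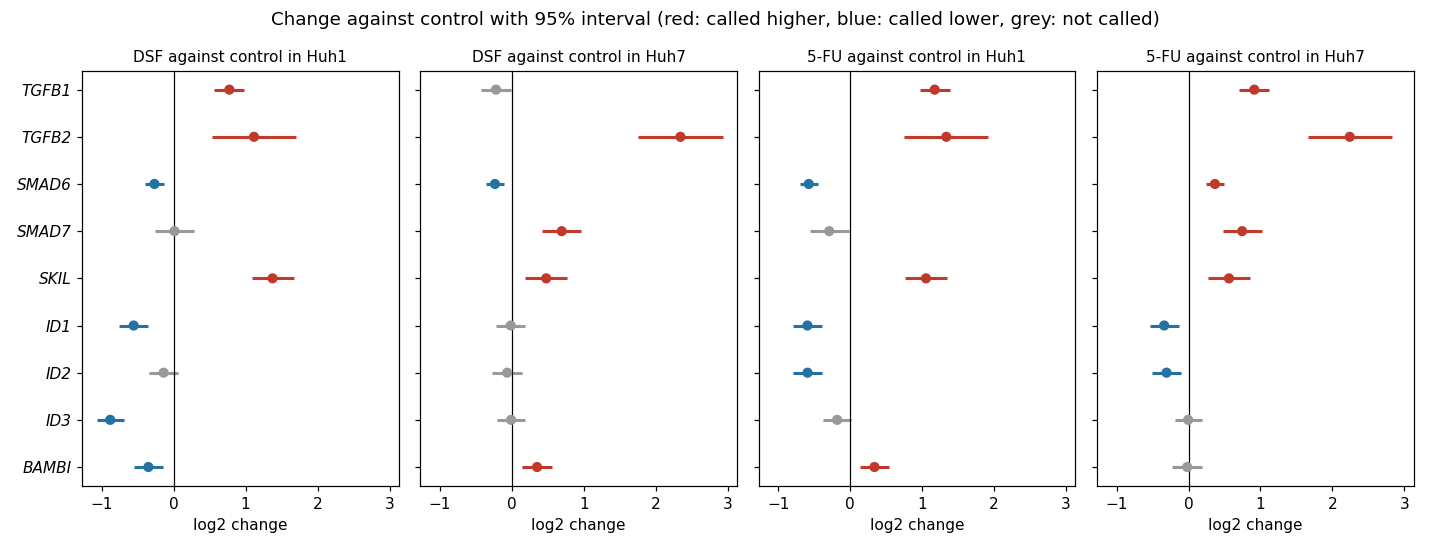
Change against control of each gene (log2, x axis) with its 95% interval, one panel for each drug and line, colored by the limma call. Both TGFB2 and SKIL stand above 0 in all 4 panels; of the ID genes, ID1 and ID3 after DSF in Huh1 and ID1 and ID2 after 5-FU in both lines are called lower, and on the spike-in scale the 5-FU values of all 3 are above 0 in both lines.

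ID1 and ID3 fell after DSF in Huh1, and neither did in Huh7. ID1 was at 7.34, 7.13 and 7.12 on the Huh1 controls and at 6.65, 6.59 and 6.69 after DSF, with no overlap. It fell by 0.56 (SE 0.093, adjusted p = 2.26e-04). ID3 was at 4.97, 4.97 and 4.91 and, after DSF, at 4.04, 4.04 and 4.12. It fell by 0.88 (SE 0.088, 1.84-fold lower, adjusted p = 2.43e-06). ID2 stood at 4.84, 4.75 and 4.79 in the controls and at 4.68, 4.63 and 4.65 after DSF, slightly under them, and its change of -0.14 (95% interval -0.34 to 0.06, adjusted p = 0.256) was not called, except with median scaling (-0.31, adjusted p = 0.0304). In the same comparison 7 of the 8 hepatocyte and liver cancer markers were called lower, as were 20.3% of all tested probes. The summed level of these markers, in linear multiples of the 75th percentile, was 679 to 734 after DSF and 863 to 918 in the controls. In Huh7 after DSF 4 of these 8 markers were called lower and 2 higher, beside 19.4% and 27.4% of probes. Their summed level there was 1012 to 1130 after DSF and 1121 to 1143 in the controls. The part of these markers in the falls of ID1 and ID3 was not tested.

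In Huh7 the same 3 genes hardly differed between DSF and control. ID1 was at 5.96, 6.0 and 5.95 in the controls and at 5.97, 5.92 and 5.97 after DSF. ID3 was at 2.95, 2.93 and 2.98 and, after DSF, at 2.95, 2.93 and 2.95. ID2 was at 5.21, 5.21 and 5.24 and, after DSF, at 5.20, 5.14 and 5.13. The changes were -0.02 (95% interval -0.22 to 0.18) for ID1, -0.01 (-0.20 to 0.18) for ID3 and -0.07 (-0.27 to 0.14) for ID2. The line difference in the DSF change was 0.54 (SE 0.13, adjusted p = 0.00503) for ID1 and 0.87 (SE 0.13, adjusted p = 9.9e-05) for ID3. It was 0.07 (95% interval -0.22 to 0.36, adjusted p = 0.694) for ID2. On the spike-in scale neither of the called line differences kept its call (0.23, adjusted p = 0.393 for ID1; 0.56, adjusted p = 0.0566 for ID3), while the falls of ID1 and ID3 in Huh1 did.

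After 5-FU another pair of ID genes was lower on the 75th percentile scale, ID1 and ID2, and these signs turn on the spike-in scale. In Huh1 ID1 was at 6.71, 6.54 and 6.56 and ID2 at 4.40, 4.11 and 4.09, all under their controls. ID3, at 4.93, 4.67 and 4.70, overlapped its controls. The changes were -0.60 (SE 0.093, adjusted p = 1.21e-04) for ID1, -0.59 (SE 0.095, adjusted p = 1.45e-04) for ID2 and -0.18 (95% interval -0.37 to 0.01, adjusted p = 0.105) for ID3. Without the first 5-FU array of Huh1 the change of ID3 was -0.26 and called (adjusted p = 0.0238). In Huh7 ID1 was at 5.52, 5.88 and 5.50, ID2 at 5.11, 4.94 and 4.70 and ID3 at 3.00, 3.12 and 2.72. ID1 and ID2 were under their controls, and ID3 lay around its own. The changes were -0.34 (SE 0.093, adjusted p = 0.00636), -0.31 (SE 0.095, adjusted p = 0.0129) and -0.01 (95% interval -0.20 to 0.18, adjusted p = 0.966). Under quantile normalization the calls of ID1 were lost, at -0.23 in Huh1 (adjusted p = 0.057) and -0.02 in the Huh7 arrays (adjusted p = 0.858). So was that of ID2 in Huh7 (-0.14, adjusted p = 0.25), which was also lost without the third 5-FU array of Huh7 (-0.20, adjusted p = 0.0674). On the spike-in scale the 5-FU changes in Huh1 became 0.23 for ID1, 0.23 for ID2 and 0.64 for ID3. Those in Huh7 became 0.65, 0.68 and 0.98. Only the last lay above the median of all probes on that scale.

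The second ID2 probe gave the same calls as the first in these comparisons. Its changes were -0.18 and 0.07 after DSF in Huh1 and Huh7, neither called, and -0.63 (adjusted p = 2.8e-04) and -0.29 (adjusted p = 0.0372) after 5-FU.

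**Figure D3:**
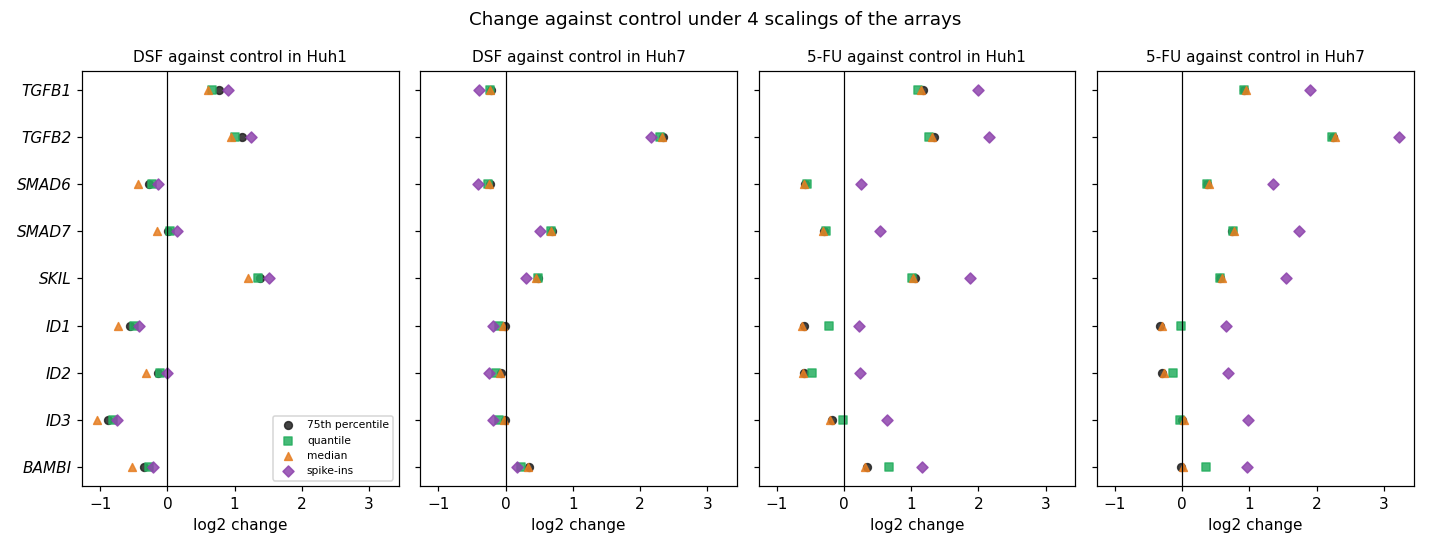
Change against control of each gene (log2, x axis) under 4 ways of scaling the arrays, one panel for each drug and line. After 5-FU the spike-in scale (diamonds) moves all 9 genes to the right, ID1 in Huh1 from -0.60 to 0.23, and quantile normalization (squares) moves the ID genes and BAMBI to the right; after DSF the scalings lie closer together.

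In counts, DSF changed 7 of the 9 genes in Huh1, where 44.2% of all tested probes were called. Of these 3 rose, as did 23.9% of probes, and 4 fell, as did 20.3%. DSF changed 5 of the 9 in Huh7, where 46.8% of probes were called, with 4 rising (27.4% of probes) and SMAD6 falling (19.4%). For 5-FU 7 of the 9 genes were called in Huh1 against 48.2% of probes, 4 of them up (22.2% of probes) and 3 down (25.9%). In Huh7 5-FU also changed 7 of the 9, against 57.1% of probes, 5 up (27.4% of probes) and 2 down (29.7%). The counts are given beside this background and were not tested against it. The median of the 9 changes was -0.14 (Huh1) and -0.01 (Huh7) after DSF and -0.18 and 0.37 after 5-FU, beside medians of all tested probes between -0.05 and 0.08. The comparisons of DSF and of 5-FU share their control arrays, so that their values stand side by side and are not independent of each other. TGFB2 and SKIL were called higher in both lines after DSF, as were 9.92% of probes, and SMAD6 lower in both, as were 7.63%. BAMBI was called in opposite directions, as were 6.98%. After 5-FU TGFB1, TGFB2 and SKIL were higher in both lines (13.2% of probes), ID1 and ID2 lower in both (15.9%), and SMAD6 opposite (5.19%). On the spike-in scale these 5-FU falls of ID1 and ID2, and that of SMAD6 in Huh1, turn positive, as given above.

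**Figure D4:**
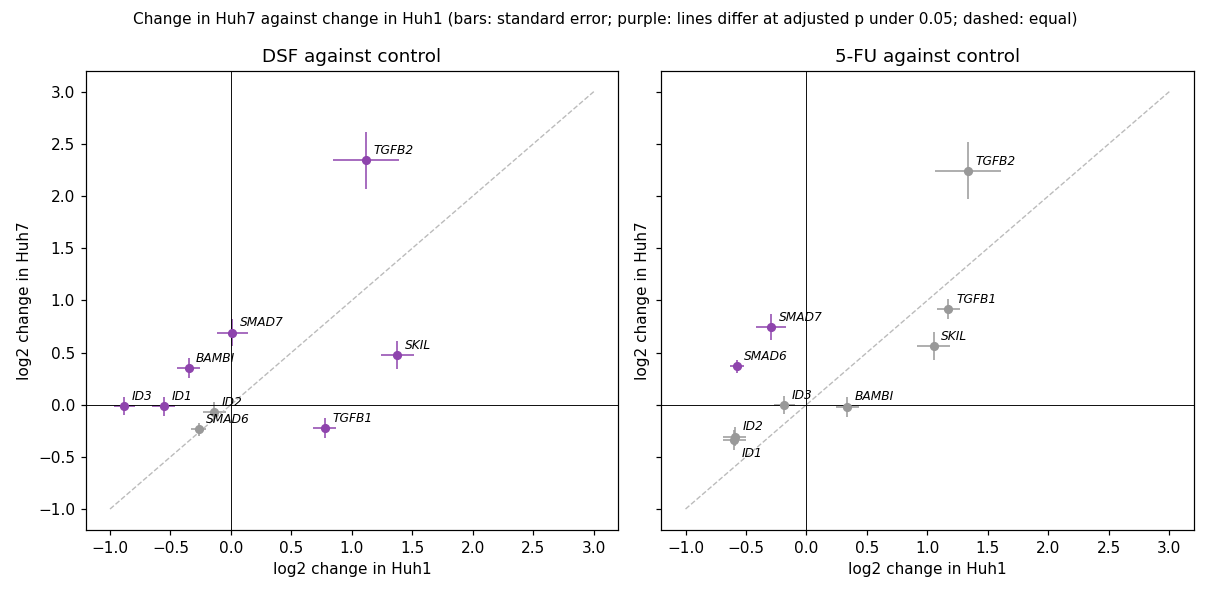
Change in Huh7 (y axis) against change in Huh1 (x axis) for DSF (left) and 5-FU (right), both log2 with SE bars; the dashed line marks equal change and purple points are genes whose change differed between the lines. For DSF 7 of the 9 genes are purple, with TGFB1 at 0.77 in Huh1 and -0.22 in Huh7; for 5-FU SMAD6 and SMAD7 are.

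Between the lines, the DSF change differed for 7 of the 9 genes, where 40.3% of all tested probes differed, and the 5-FU change for 2, where 36.6% did. Of the 7, TGFB1 and SKIL changed more to the positive side in Huh1 and the other 5 in Huh7. On the spike-in scale, where the median of all probes in this difference was -0.25, only TGFB1 and SKIL remained called. For 5-FU, the count was 4 without the first 5-FU array of Huh1, 5 without the third 5-FU array of Huh7 and 4 with normexp. As to the untreated cells, 7 of the 9 genes differed between Huh7 and Huh1 controls, where 70.7% of all probes did. Huh7 had less ID3 (-2.00, SE 0.088, adjusted p = 3.89e-11), ID1 (-1.23, adjusted p = 1.77e-08) and TGFB2 (-2.90, adjusted p = 1.98e-07), as well as SMAD6 (-0.76) and SMAD7 (-0.51). It had more TGFB1 (1.73, SE 0.097, adjusted p = 5.38e-10) and ID2 (0.43). SKIL (-0.14, adjusted p = 0.375) and BAMBI (-0.15, adjusted p = 0.183) were not called. The Huh1 and Huh7 controls were on different slides, and the only Huh1 array on a slide with Huh7 arrays was the third DSF array. With the slide as a block 5 of the 7 calls held, while those of SMAD7 (-0.49, adjusted p = 0.107) and ID2 (0.44, adjusted p = 0.0555) were lost, and that of SMAD7 also on the spike-in scale (-0.43, adjusted p = 0.0571).

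Set directly against each other, DSF and 5-FU differed in 5 of the 9 genes in each line, where 49.2% of all probes were called in Huh1 and 60.5% in Huh7. In both lines TGFB1 was lower after DSF than after 5-FU, by 0.40 in Huh1 (adjusted p = 0.00339) and by 1.14 in Huh7 (adjusted p = 2.12e-07). SMAD6 was 0.31 higher after DSF in Huh1 (adjusted p = 6.49e-04) and lower after DSF in Huh7 (-0.60, adjusted p = 9.27e-07), and on the spike-in scale the Huh1 difference turned to -0.38 (adjusted p = 0.0262). With median scaling it was 0.16 (adjusted p = 0.162). BAMBI was lower after DSF in Huh1 (-0.69, adjusted p = 4.48e-05). In Huh7 it was higher (0.37, adjusted p = 0.00448), but this was -0.14 under quantile normalization (adjusted p = 0.354) and -0.79 on the spike-in scale (adjusted p = 6.77e-04). ID3 differed by -0.70 in Huh1 (adjusted p = 1.78e-05). ID2 was higher after DSF by 0.45 in Huh1 (adjusted p = 0.0012) and by 0.24 in the Huh7 arrays (adjusted p = 0.0418), and ID1 by 0.32 in Huh7 (adjusted p = 0.00836). All 3 of these signs turn on the spike-in scale. The ID2 call in Huh7 was lost without any 1 of 5 of the 6 arrays, at 0.13 (adjusted p = 0.213) without the third 5-FU array, and the ID1 call with the slide as a block (0.34, adjusted p = 0.0664). For TGFB2 the drugs differed by -0.22 in Huh1 (95% interval -0.80 to 0.37, adjusted p = 0.539; -0.58, adjusted p = 0.0489, without the first 5-FU array) and 0.10 in Huh7 (-0.48 to 0.69, adjusted p = 0.764), intervals that leave room for differences in either direction.

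The other genes of the pathway, from lists of ligands, receptors, SMADs, regulators and targets, showed calls in both directions in nearly every list. Of all tested probes DSF raised 23.9% and lowered 20.3% in Huh1, and raised 27.4% and lowered 19.4% in Huh7. 5-FU raised 22.2% and lowered 25.9% of them in Huh1, and raised 27.4% and lowered 29.7% in Huh7. These shares stand beside all the list counts below, which were not tested against them. Of 19 other ligand genes 15 were tested. DSF raised 4 and lowered 2 in Huh1, and raised 5 and lowered 6 in Huh7. 5-FU raised 5 and lowered 2 in Huh1, and raised 6 and lowered 4 in Huh7. These Huh1 counts include BMP7 (0.79 after DSF, -0.80 after 5-FU), which was not well above background on any array of the groups compared, so that its calls compare background signals. GDF15, a stress-induced ligand of the family that signals through GFRAL rather than the receptors named here, rose in all 4 comparisons. It went from 4.60 ± 0.34 (SD, n = 3) in Huh1 controls to 7.39 ± 0.03 after DSF and 7.60 ± 0.23 after 5-FU, and from 6.57 ± 0.03 in Huh7 controls to 7.99 ± 0.03 and 7.28 ± 0.24. LEFTY1, an antagonist of Nodal, was higher after 5-FU in both lines (1.80 and 2.32) and after DSF in Huh1 (1.47), where only 1 of 3 control arrays was well above background, and stood at -0.26 in Huh7 (adjusted p = 0.0726).

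Of 13 receptor genes 12 were tested. In Huh1 DSF raised 3 and lowered 4, and 5-FU raised 4 and lowered 3. In Huh7 DSF raised 4 and lowered 2, and 5-FU raised 8 and lowered 2. ACVR2B, an activin type II receptor, fell in all 4 comparisons, by 0.59 and 0.49 after DSF and by 1.00 and 1.98 after 5-FU in Huh1 and Huh7. Its Huh1 calls were lost on the spike-in scale (-0.46, adjusted p = 0.0539 after DSF; -0.18, adjusted p = 0.355 after 5-FU). BMPR1B, a BMP type I receptor, was not well above background on any Huh1 array, so that its call in Huh1 after 5-FU (lower) compares background signals. On the spike-in scale that change turned to 0.12 (adjusted p = 0.649). In Huh7 BMPR1B was higher by 1.81 after DSF and 1.60 after 5-FU, with 1 of 3 control arrays above background.

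All 6 receptor-regulated and common SMAD genes were tested. In Huh1 DSF raised 2 of them and lowered 3, and in Huh7 it lowered 4 and raised 0. 5-FU raised 3 and lowered 3 in Huh1, and raised 2 and lowered 3 in Huh7. SMAD9, a BMP receptor SMAD, fell by 1.60 and 0.92 after DSF (adjusted p = 3.79e-07 and 5.99e-05) and by 0.75 and 0.64 after 5-FU (adjusted p = 2.98e-04 and 7.32e-04). The 5-FU changes of SMAD9 turned on the spike-in scale, to 0.07 (adjusted p = 0.703) in Huh1 and 0.34 (adjusted p = 0.0806) in Huh7. SMAD3, which carries TGF-β signals, rose in Huh1 (0.99 after DSF, 0.78 after 5-FU) and was not called in Huh7 (0.10 and 0.30; on the spike-in scale -0.08, not called, and 1.29, called).

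Among 11 intracellular regulators, DSF raised 1 and lowered 5 in Huh1 and raised 6 and lowered 1 in Huh7. For 5-FU these counts were 3 up and 3 down (Huh1) and 2 up and 3 down (Huh7). SMURF1, a ubiquitin ligase for SMADs and receptors, was higher after DSF in both lines (0.85 and 0.75) and after 5-FU in Huh1 (0.47). TRIM33, a nuclear SMAD partner, was lower in Huh1 after DSF (-0.48) and in both lines after 5-FU (-0.53 and -0.69). The latter signs of TRIM33 turn on the spike-in scale, to 0.29 (adjusted p = 0.0481) and 0.30 (adjusted p = 0.043). Among 11 tested of 16 extracellular regulators, THBS1, which can release TGF-β from its latent form, rose in all 4 comparisons, by 1.38 and 1.02 after DSF and by 1.98 and 1.67 after 5-FU. FST, the activin antagonist follistatin, rose by 2.23 after DSF in Huh7 and by 1.29 and 3.39 after 5-FU. In this list DSF raised 6 and lowered 2 in Huh1 and raised 2 and lowered 3 in Huh7, while 5-FU raised 5 and lowered 2 in Huh1 and raised 7 and lowered 2 in Huh7. The 6 raised by DSF in Huh1 include LRRC32 (1.16), which was not well above background on any control or DSF array there.

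Of the further target genes, 6 BMP targets of 7 and all 12 TGF-β targets were tested. The BMP targets split: DSF raised 2 and lowered 2 in Huh1 and raised 1 and lowered 1 in Huh7. 5-FU raised 2 and lowered 2 in Huh1 and raised 3 and lowered 1 in Huh7. Those not called after DSF in Huh1 include ATOH8, at 0.85 ± 0.15 in the controls and -0.82 ± 0.12 after DSF. Its Huh7 controls were spread widely (SD 4.35), with 1 of 3 well above background, and the fit takes 1 spread over all 6 groups. The 2 called higher after DSF in Huh1 were MSX1 (mean -2.80 in the controls and -1.65 after DSF) and HEY1 (-2.34 and -1.23). HAMP, which encodes hepcidin, fell there by 1.83 (adjusted p = 5.55e-06), as ID1 and ID3 did, while ID2 was not called. In Huh7 HAMP rose by 0.67 after DSF (adjusted p = 0.0144), or 0.49 (adjusted p = 0.0663) on the spike-in scale. It rose from a much lower level of this probe (6.78 ± 0.11 in Huh1 and -2.34 ± 0.15 in Huh7 controls). Its DSF change differed between the lines by 2.50 (adjusted p = 1.4e-05). After 5-FU HAMP stood at -0.47 in Huh1, not called (0.35 on the spike-in scale), and rose by 0.73 in Huh7 (adjusted p = 0.00633). DLX5 was well above background on all Huh7 controls and on no Huh7 DSF array, at least 4.68-fold lower. After 5-FU it was also lower in Huh7 (-1.94, adjusted p = 2.84e-04). There the difference of DSF and 5-FU was -0.45, not called (-1.61, called, on the spike-in scale). In Huh1 DLX5 was higher after 5-FU (1.00, adjusted p = 0.0307), with 1 of 3 of these arrays well above background. The TGF-β targets were called higher 6 times in each of the 4 comparisons and lower 2 times, 1 time, 3 times and 2 times, with medians of 0.59 and 0.50 after DSF and 0.16 and 0.46 after 5-FU. The medians of all tested probes were 0.002 and 0.08 after DSF and -0.03 and -0.05 after 5-FU. Of these probes 22.2 to 27.4% were called higher and 19.4 to 29.7% lower. CDKN2B, the cell cycle inhibitor p15, rose in all 4, by 1.42 and 2.08 after DSF and by 1.76 and 2.94 after 5-FU. COL1A1, also a fibroblast gene, was lower after DSF in Huh7 (-2.00, adjusted p = 0.023) and not above background on any Huh1 5-FU array.

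**Figure D5:**
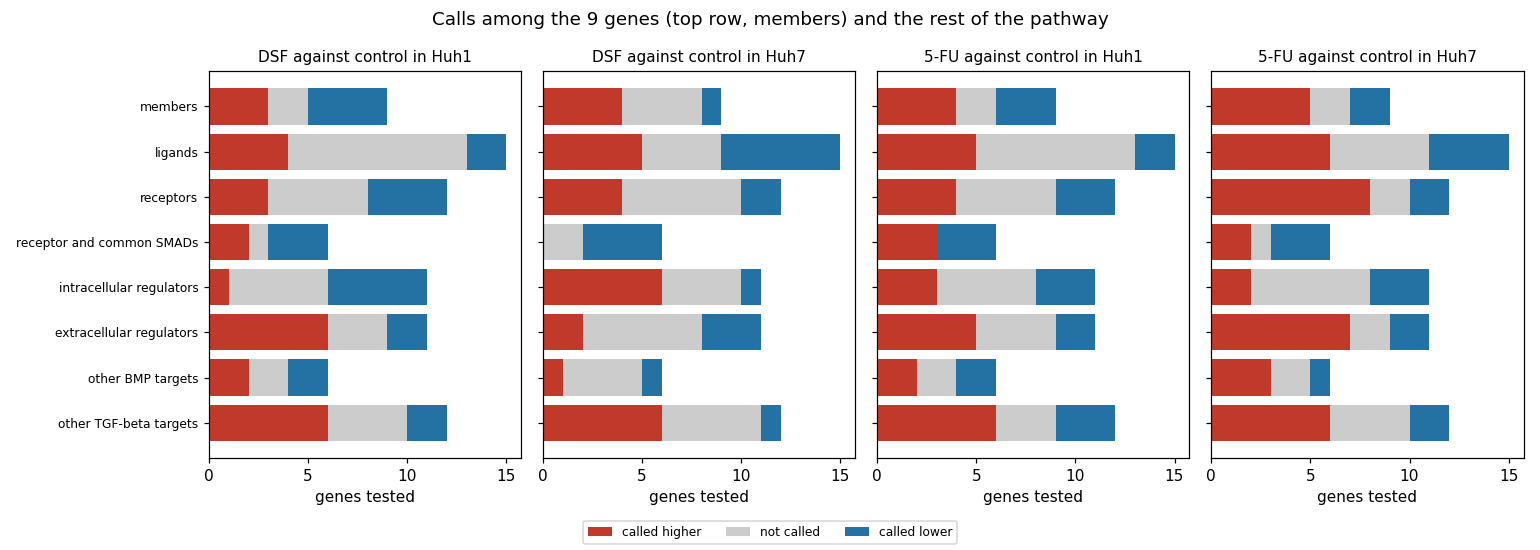
Number of tested genes (x axis) called higher (red), not called (grey) and called lower (blue) on the 75th percentile scale among the 9 genes (members) and in 7 lists of other pathway genes, one panel for each drug and line. The 12 other TGF-β targets have 6 genes called higher in every panel, and the receptor list after 5-FU in Huh7 has 8. Of all tested probes 22.2 to 27.4% were called higher and 19.4 to 29.7% lower in these comparisons.

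Markers of other cell types differed between groups, most in Huh7 after 5-FU. There 4 of the 7 fibroblast and stellate cell markers were well above background on all arrays, against 2 in the controls. Their summed level, taken as linear multiples of the 75th percentile, was 3.04 to 3.21 after 5-FU, 0.52 to 0.557 in the controls and 0.472 to 0.502 after DSF. In Huh1 it was 0.989 to 1.54 in controls, 1.08 to 1.17 after DSF and 1.41 to 2.23 after 5-FU. In Huh7 after 5-FU LUM rose by 2.72, DCN was at least 9.15-fold and PDGFRB at least 3.27-fold higher, with DCN and PDGFRB above background on no Huh7 control array. The summed level there was mostly LUM, whose mean log2 level was 1.49, with DCN next at -3.14. COL1A1 was not called (0.56, adjusted p = 0.497). ACTA2 was well above background on 2 of 3 Huh7 control arrays and on 1 of 3 after 5-FU, with mean levels of -5.95 and -6.58. COL1A2 and COL3A1 were not above background on any array of the 3 Huh1 groups or of Huh7 controls. The part of the fibroblast and stellate cell markers in the Huh7 changes of the 9 genes after 5-FU was not tested. The endothelial markers summed to 0.254 to 0.277 in Huh7 controls, 0.285 to 0.317 after DSF and 0.424 to 0.493 after 5-FU, and to 0.509 to 0.626, 0.418 to 0.431 and 0.363 to 0.597 in the Huh1 groups. The leukocyte markers summed to 1.73 to 1.76, 1.82 to 1.99 and 2.8 to 4.39 in Huh7 and to 4.14 to 5.47, 4.19 to 4.38 and 5.25 to 5.85 in Huh1, in the same order. In Huh7 after 5-FU only 1 of the 4 leukocyte markers was called higher (27.4% of all tested probes were). CD68 had mean levels of 0.06 in the controls and 1.65 after 5-FU, and CD14 of -0.62 and -0.83. Of 3 tested endothelial markers 1 was called higher there and 1 lower (29.7% of probes were). PECAM1 had mean levels of -2.47 and -1.45.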

How the data were processed

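EpCAM+ cells from Huh1 and Huh7 were profiled on 18 one-colour Agilent arrays, 3 for each of 6 groups, described by the study as triplicates from independent experiments. Per the labels the images were read with Agilent Feature Extraction 10.7.1.1, which the file headers also give. The deposited intensity values are linear processed signals after background subtraction, not scaled between arrays. The authors also deposited a normalized intensity table, in which each array was divided by its own 75th percentile; 100% of its probes lay within 0.05 log2 of the scanner values scaled in that way.

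Here log2 processed signals were averaged over unflagged spots, and the log2 of the array's 75th percentile was taken off. Of 42405 probes, 78 without an unflagged spot on some array were left out. The 29894 tested probes were well above background, by the scanner's flag, throughout at least 1 group. All 6 groups entered 1 limma fit (lmFit and eBayes, limma 3.58.1, R 4.3.3), with Benjamini-Hochberg adjustment over all tested probes. With 3 against 3 arrays an exact rank test could not fall under the threshold. Tables and figures were made with Python 3.11.15, pandas 2.3.3 and matplotlib 3.10.9. The number of arrays limits the precision, and where the experiments behind them share cells the p-values measure technical spread only.

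A RefSeq accession was printed for 27134 probes. By accession or by printed symbol, 25771 probes were matched to a symbol, for 19740 genes, through a RefSeq table (GRCh38.p14). The array was designed on another build, so no probe coordinates are given. A gene is represented by its probe with the highest mean. A probe not above background in a whole group gives only a bound, against the higher of its own signal and the lowest signal well above background on each array. From each pathway list the text names the 2 genes with the largest mean absolute change over the 4 comparisons with control. These were taken among the genes called in at least 1 of them. Other list genes are named where they bear on a count. COL1A1 stands in both a target and a marker list, and NBL1 had no probe named here. The 9 genes, the lists and the tests were chosen with earlier results of these data known. The alternatives were median, quantile and spike-in scaling, normexp on the median spot and background signals (offset 50), no filter on dim probes, the mean over probes, the slide or the replicate number as a block, fits on fewer groups, the deposited table and leaving out each array. The fit was tested on simulated data.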

Additional observations from a re-analysis of the deposited data

Results flagged for a closer look

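The change after DSF differed between Huh7 and Huh1 for 7 of the 9 genes by the test of the difference itself (log2, Huh7 minus Huh1). Of all tested probes 40.3% differed in this comparison. TGFB1 (-1.0, SE 0.14, limma adjusted p = 6.69e-05) and SKIL (-0.90, SE 0.19, adjusted p = 0.00207) changed more to the positive side in Huh1. ID3 (0.87, SE 0.13, adjusted p = 9.9e-05), BAMBI (0.70, SE 0.14, adjusted p = 0.00107), ID1 (0.54, SE 0.13, adjusted p = 0.00503), SMAD7 (0.68, SE 0.18, adjusted p = 0.00796) and TGFB2 (1.23, SE 0.39, adjusted p = 0.021) did so in Huh7. On the spike-in scale only TGFB1 and SKIL remained called. The TGFB2 call was also lost with normexp and with the slide as a block. Of the 3 arrays of each DSF group, 1 in Huh1 and 2 in Huh7 were on another slide than their controls. On the shared slide alone the changes of TGFB1 were 0.73 in Huh1 (2 DSF arrays) and -0.21 in Huh7 (1 DSF array), those of SKIL 1.39 and 0.61, and those of ID3 -0.91 and -0.00489.

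The change after 5-FU differed between the lines for SMAD6 (0.94, SE 0.084, adjusted p = 1.93e-06) and SMAD7 (1.04, SE 0.18, adjusted p = 4.54e-04), both higher in Huh7. Of all tested probes 36.6% differed in that comparison. These arrays shared a slide with their controls in each line.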

How the results depend on the processing

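With 9 genes and 9 comparisons there were 81 values. The deposited normalized table, the mean over probes and the replicate block kept all 81 on the same side of 0 and of the threshold. The deposited table holds the same signals on the same scale, and only ID2 has more than 1 probe. The agreement of the deposited table and of the mean over probes was therefore largely given in advance. No filter on dim probes and fits on fewer groups turned no sign and moved 1 and 3 calls. Between median scaling (73 of 81 kept), quantile normalization (66), normexp (72), the slide as a block (71) and the spike-in scale (46), the last moved most. The causes were not tested, beyond the shift of the spike-in scale given above. Replicate numbers did not pair the arrays: in 18 same-numbered pairs the deviations from the group means correlated at -0.09 to 0.02, and none was over 0.1. With the replicate block 7 of the 9 genes were called after DSF in Huh1, 5 in Huh7 and 7 after 5-FU in each line, as without it.

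Signs turned as follows. On the spike-in scale the 5-FU change in Huh1 was 0.25 for SMAD6, 0.53 for SMAD7, 0.23 for ID1, 0.23 for ID2 and 0.64 for ID3, and in Huh7 it was 0.65 for ID1, 0.68 for ID2, 0.98 for ID3 and 0.97 for BAMBI. On that scale DSF against 5-FU in Huh1 gave -0.38 for SMAD6, -0.39 for SMAD7, -0.37 for SKIL, -0.65 for ID1 and -0.24 for ID2, and in Huh7 -1.06 for TGFB2, -0.84 for ID1, -0.92 for ID2 and -0.79 for BAMBI. The line difference in the DSF change was -0.28 for SMAD6 and -0.24 for ID2. Under quantile normalization BAMBI was 0.36 after 5-FU in Huh7, -0.14 for DSF against 5-FU in Huh7 and 0.00140 between the controls. ID1 was -0.27 in Huh1 and -0.078 in Huh7 for DSF against 5-FU. The line difference was -0.035 for SMAD6 and -0.035 for ID2 after DSF and -0.027 for ID3 after 5-FU. With median scaling SMAD7 was -0.16 after DSF in Huh1, ID1 -0.11 for DSF against 5-FU in Huh1, and after 5-FU in Huh7 ID3 was 0.025 and BAMBI 0.012. With normexp ID3 was 0.00469 and BAMBI 0.011 after 5-FU in Huh7, and the line difference of TGFB2 in the 5-FU change was -0.19. With the slide as a block ID1 was 0.00280 after DSF in Huh7, and DSF against 5-FU in Huh7 gave 0.00223 for SMAD7, 0.043 for SKIL and 0.000331 for ID3.

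When each array was left out in turn, signs turned only for changes that were not called. The ranges were -0.040 to 0.088 for SMAD7 after DSF in Huh1, -0.028 to 8.64e-05 for ID1 and -0.021 to 2.00e-04 for ID3 after DSF in Huh7, and -0.090 to 0.11 for ID3 and -0.090 to 0.10 for BAMBI after 5-FU in Huh7. DSF against 5-FU in Huh7 ranged from -0.17 to 0.36 for TGFB2, -0.22 to 0.11 for SMAD7 and -0.12 to 0.078 for ID3, and the line difference of SMAD6 in the DSF change from -0.020 to 0.077. Of 594 such values 560 kept sign and call.

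Counts of called genes moved by over 1.5 times in 3 comparisons. For DSF against 5-FU in Huh7 the count of 5 became 2 under quantile normalization, 9 on the spike-in scale and 3 with the slide as a block. For the line difference after DSF 7 became 2 on the spike-in scale. For the line difference after 5-FU 2 became 4 with normexp and ranged from 2 to 5 when each array was left out. Of all probes 5-FU raised 6649 and lowered 7752 in Huh1, but raised 22339 and lowered 367 on the spike-in scale, and in Huh7 8180 up and 8882 down became 22962 up and 1035 down. In Huh1 DSF raised 7147 and lowered 6073, which became 7081 and 2420 on the spike-in scale and 4750 and 9635 with median scaling. In Huh7 DSF raised 8189 and lowered 5798, which became 3241 and 6124 on the spike-in scale.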

Other observations

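For each of the 9 genes, the genes with the most similar pattern over the 18 arrays were looked up among 15852 genes, by Pearson's r after each line's mean was taken off. The arrays fall into treatment groups, so these r values describe group differences and carry no p. For TGFB1 they were CARD18 (0.99), LRRC66 (0.98) and EHD1 (0.98), and for TGFB2 TMEM234 (0.97), PLK2 (0.96) and CREB5 (0.96). SKIL was nearest to ZRSR2 (0.98), LAT2 (0.98) and DUSP10 (0.97). SMAD6 was nearest to AKAP7 (0.97), ADAM10 and PHF24 (both 0.96), and SMAD7 to SH3GL1 (0.95), SFT2D2 (0.93) and CAPN2 (0.92). Among the ID genes, ID1 was nearest to TNFRSF1A (0.95), ID2 to PCBP2 (0.96) and ID3 to IHH, the hedgehog ligand (0.95). BAMBI was nearest to RAD50 (0.96), a DNA break repair protein. None of the 9 genes was among the 3 nearest of another.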
